A study of Homo sapiens with 10 samples.

Results

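The genes described here are 10 targets of the unfolded protein response, the program that cells switch on under stress of the endoplasmic reticulum (ER). They were chosen by name as HSPA5, HSP90B1, XBP1, HERPUD1, DNAJB9, SDF2L1, PDIA4, CALR, CRELD2 and DNAJC3. All 10 were found among the 20535 gene symbols of each library, and all 10 were among the 10127 genes that were tested, those averaging 1 TPM or more. A TPM value states how much of a library's transcript pool a gene takes up. The listed values summed to between 790470 and 844414 in a library, so they do not share 1 total.

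When unfolded proteins build up in the ER, the sensors IRE1 (gene ERN1), PERK (EIF2AK3) and ATF6 act on transcription and translation. ATF6 and spliced XBP1 raise chaperones and folding enzymes, whereas PERK phosphorylates eIF2α and so raises ATF4, a factor that other kinases also raise when amino acids run short. Targets of ATF6 and XBP1 can therefore be read apart from targets of ATF4, such as ASNS and CHAC1.

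RNA-seq was performed in K562, an erythroleukemia line, in which dCas9 effectors were directed to HS2, an enhancer of the β-globin locus. The labels give 2 libraries for each of 5 groups: a control with the nontargeting sgGal4, for which they name no effector, and sgHS2 with enCRISPRi-KL, enCRISPRi-LK, dCas9-LSD1 (L) or dCas9-KRAB (K). The fusions were delivered by lentivirus and induced with doxycycline in sorted populations, and no treatment to stress the ER is named. The study counts them as 2 experiments and describes the numbers in its figures as those of independent experiments or biological replicates. Neither it nor the labels say that the libraries of a group came from separate cultures, so p-values measure only the spread between these libraries. The read depth behind each TPM value is unknown.

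The target gene and the effector genes were read first. HBE1, a globin gene under the control of HS2, was at 1376 and 1620 TPM with sgGal4, 695 and 759 TPM in K, 1019 and 986 TPM in L, 557 and 458 TPM in LK, and 384 and 361 TPM in KL. Every sgHS2 library was below both sgGal4 libraries, and the limma test described below called HBE1 lower in K, LK and KL but not in L (adjusted p = 0.0567). KDM1A, which encodes LSD1, was at 105 and 84.2 TPM in the libraries labelled L and between 25.2 and 33.5 TPM in all others, LK and KL included. ZNF10, a source of KRAB domains, was at 1.18 and 3.80 TPM in the libraries labelled K, near its 0.97 and 1.89 TPM with sgGal4, but at 128 and 136 TPM in L, 36.8 and 31.5 TPM in LK, and 365 and 360 TPM in KL. Because these levels go against some labels, each sgHS2 group is named below by its label alone.

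Of the K562 markers, 12 of 12 were detected, with HBZ as the most abundant by its mean over all libraries, at 800 to 2712 TPM. In both sgGal4 libraries HBE1 was above HBZ, which was at 1034 and 940 TPM there. Besides HBE1, HBZ was called higher in L (log2 difference 1.21) and KL (0.66), HBG2 lower in LK (-1.02) and KL (-1.81), and HBG1 lower in KL (-1.13). The HBZ call in KL was lost without any library but those labelled L (adjusted p 0.0540 to 0.276), that of HBG2 in LK without LK replicate 1 (0.0788), and that of HBG1 without sgGal4 replicate 1 (0.0748) or KL replicate 2 (0.152). Of 6 T cell markers, CD3E, CD2 and LCK were listed at 0 in all libraries, and the list summed to between 2.33 and 34.9 TPM, with CD3D as the most abundant. CD3D was at 26.1 and 33.6 TPM with sgGal4 and between 1.65 and 21.3 TPM in the 8 sgHS2 libraries, all below both sgGal4 libraries as for HERPUD1 below, though it was not called (mean of the 4 groups, log2 difference -1.89, adjusted p = 0.0792), and its part in the results was not tested. Of 6 B and plasma cell markers, which would mark secretory cells rich in these chaperones, MS4A1, CD79A and CD79B were listed at 0. The list summed to between 1.14 and 7.40 TPM, with PRDM1 the most abundant by its mean over all libraries. In both libraries labelled K, L replicate 1, LK replicate 1 and KL replicate 2, SDC1 was above PRDM1. A value of 0 in every library is also listed for broadly expressed genes such as SSR4 and HYOU1, so a gene that was not quantified and one that was not expressed cannot be told apart by it. In bulk samples, fewer cells of a kind and less RNA per cell cannot be told apart.

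The libraries also differed in a share that bears on every TPM value. The 13 protein-coding genes of the mitochondrial genome took 53.6% of the listed TPM in sgGal4 replicate 1 and 43.7% in replicate 2, against 39.9% to 46.6% in the sgHS2 libraries. The 10 ER stress targets summed to 645 TPM in sgGal4 replicate 1 and 863 TPM in replicate 2. With sgHS2 they summed to 1140 and 927 TPM in K, 810 and 866 TPM in L, 942 and 980 TPM in LK, and 838 and 848 TPM in KL. The library with the largest mitochondrial share thus had the lowest sum, and sgGal4 replicate 2 lay within the range of the sgHS2 libraries. CALR and HSP90B1 made up 61.6% to 68.9% of the sum in each library. How far the mitochondrial share sets the sums was not tested, but for CALR and HERPUD1, the members that passed the test, values with these genes left out and the rest rescaled are given below.

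**Figure D1:**
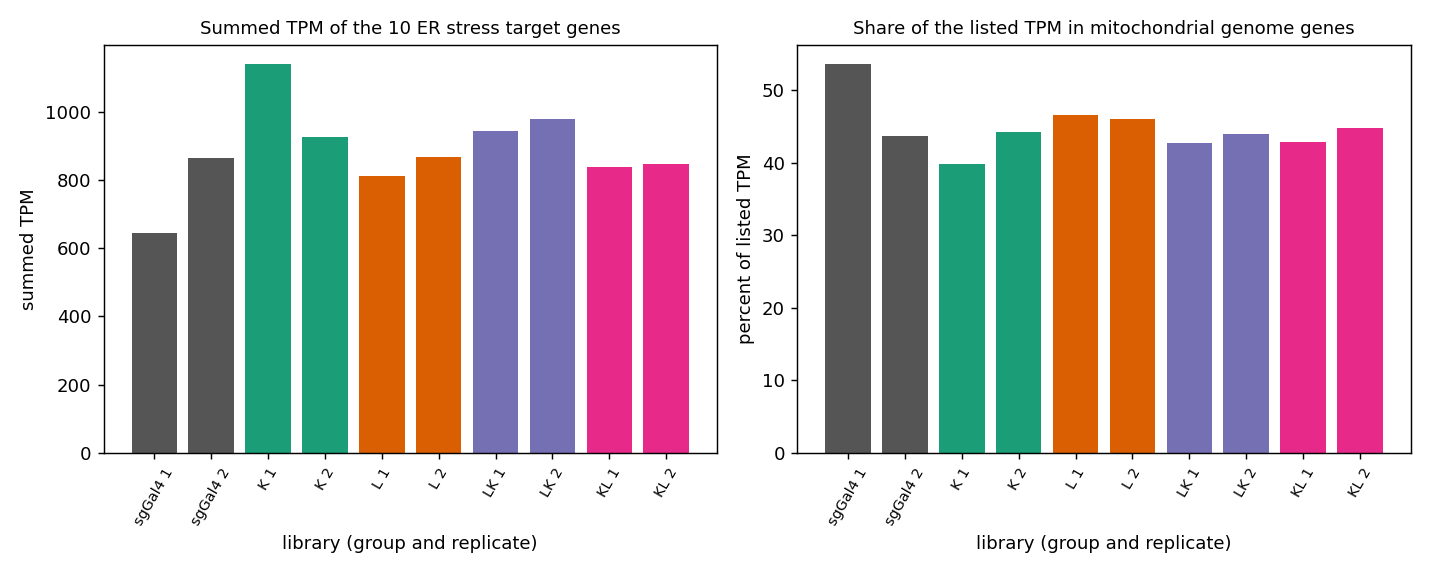
Bars give for each of the 10 libraries the summed TPM of the 10 ER stress target genes (left) and the percent of the listed TPM taken by genes of the mitochondrial genome (right), coloured by group. The sgGal4 replicate 1 library has the lowest sum, 645 TPM, and the highest mitochondrial share, 53.6%.

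The promoters of the 10 genes were searched for the elements through which ER stress is known to act. These elements were defined in promoters of such targets, so their presence follows in part from the choice of genes and supports no result. The ER stress response element (ERSE) is written CCAAT, any 9 bases, CCACG, and ERSE-II is written ATTGG, any 1 base, CCACG. Both strands were searched from 250 bases before to 50 bases after each start site, in RefSeq promoters of GRCh38.p14. ERSE was found for 5 of the 10 genes and for 0.0916% of all 27305 genes with a promoter (0.0769% of all 35116 promoters). ERSE-II was found for 2 of the 10 and for 0.0696% of all these genes (0.0541% of promoters). Capitals mark the outer blocks of ERSE, and each line reads 5′ to 3′ along the strand of the match.
HSPA5: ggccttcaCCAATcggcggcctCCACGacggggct
HSP90B1, far site: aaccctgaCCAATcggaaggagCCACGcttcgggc
HSP90B1, near site: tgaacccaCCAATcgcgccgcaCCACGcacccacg
XBP1: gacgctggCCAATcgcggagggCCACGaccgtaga
CALR: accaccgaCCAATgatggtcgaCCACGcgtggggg
CRELD2: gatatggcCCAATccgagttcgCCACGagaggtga

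These matches lie at chr9:125241391-125241409 (HSPA5, minus strand gene), chr12:103930216-103930234 and chr12:103930321-103930339 (HSP90B1), chr22:28800603-28800621 (XBP1, minus strand gene), chr19:12938384-12938402 (CALR) and chr22:49918554-49918572 (CRELD2). In HSPA5 and XBP1 and at the far HSP90B1 site the match reads along the gene, and at the near HSP90B1 site, in CALR and in CRELD2 along the opposite strand. In HERPUD1 (chr16:56932025-56932035, along the gene) and SDF2L1 (chr22:21642114-21642124, opposite strand) the match was to ERSE-II. A core of the element bound by ATF4 (CARE), written TGATG, any 1 base, AA, was found in 3.62% of all promoters and for 4.46% of all genes with a promoter. Among the 10 genes it was found for HERPUD1 alone. It was also found for ATF3 and, of 14 amino acid and ATF4 genes with a promoter, for ASNS, CHAC1, SLC3A2 and SLC1A5, the last 2 of which were not called in any comparison with sgGal4. It is shown for HERPUD1 and 2 of the others. Capitals mark the whole match below.
HERPUD1, ERSE-II: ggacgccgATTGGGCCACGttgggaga
SDF2L1, ERSE-II: gggttttgATTGGTCCACGcttccgag
HERPUD1, CARE core: gcacgggcTGATGCAAcccgccgc
CHAC1, CARE core: ggcaggagTGATGCAAcggcaggg
ASNS, CARE core: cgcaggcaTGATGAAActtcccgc

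The HERPUD1 core lies at chr16:56931966-56931973 and that of CHAC1 at chr15:40953262-40953269, both on the strand opposite to the gene, and that of ASNS, a minus strand gene, at chr7:97872469-97872476 along the gene. Another core, TGACGTG, in which XBP1 is known to bind, was in 1.97% of all promoters, and was found for 2.40% of all genes with a promoter and for 0 of the 10. DNAJB9, PDIA4 and DNAJC3 had no match to any of these 4 motifs in this window. A match describes the letters and does not show that a factor was bound.

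HSPA5 encodes BiP, the main Hsp70 chaperone of the ER, and its gene spans 127997132 to 128003661 on chromosome 9 (hg19, 8 exons, minus strand). It was at 51.2 and 60.4 TPM with sgGal4, 66.9 and 51.6 TPM in K, 42.3 and 47.7 TPM in L, 56.9 and 56.4 TPM in LK, and 41.6 and 43.2 TPM in KL. The libraries labelled K and LK overlapped with sgGal4, whereas both libraries labelled L and both labelled KL were below it. Against sgGal4, limma on log2(TPM + 1) gave log2 differences of 0.08 (K), -0.30 (L), 0.03 (LK) and -0.38 (KL), each with a standard error of 0.203, and the smallest adjusted p was 0.415. The 95% intervals reached from -0.82 at the lowest, for KL, to 0.51 at the highest, for K. A rise of HSPA5 above 1.43-fold thus lay outside every interval, although a p above the threshold does not show that levels were equal.

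HSP90B1 encodes GRP94, the Hsp90 of the ER, and spans 104323885 to 104347709 on chromosome 12. It was between 187 and 242 TPM with sgGal4 and between 188 and 273 TPM in the sgHS2 libraries. These ranges overlapped, and the largest log2 difference was 0.21 for K (95% interval -0.13 to 0.56, adjusted p = 0.566).

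CALR encodes calreticulin, a lectin chaperone that binds calcium and glycoproteins, and spans 13049392 to 13055303 on chromosome 19 with 9 exons. It was at 210 and 305 TPM with sgGal4, 461 and 410 TPM in K, 344 and 364 TPM in L, 428 and 465 TPM in LK, and 358 and 340 TPM in KL. All 8 sgHS2 libraries were above both sgGal4 libraries, which themselves differed 1.45-fold. CALR rose in the libraries labelled K (log2 difference 0.78, standard error 0.161, adjusted p = 0.0304) and LK (0.82, adjusted p = 0.0196), while L (0.48, adjusted p = 0.200) and KL (0.46, adjusted p = 0.191) did not pass the threshold. For the mean of the 4 sgHS2 groups the difference was 0.63 (95% interval 0.36 to 0.91, adjusted p = 0.0150). With mitochondrial genes left out and the rest rescaled, the differences were 0.65 (K, adjusted p = 0.0172), 0.69 (LK, 0.0114) and 0.53 (mean, 0.00860). Without sgGal4 replicate 1 they were 0.51 (K, 0.139), 0.55 (LK, 0.0867) and 0.37 (mean, 0.190), and no call of CALR was left. The K call was also lost without K replicate 1 (0.163), K replicate 2 (0.113) or LK replicate 1 (0.0526), and the LK call without LK replicate 1 (0.110) or LK replicate 2 (0.211). Without sgGal4 replicate 2, L (0.75, adjusted p = 0.0213) and KL (0.73, 0.0160) passed the threshold as well. Over all alternatives the adjusted p ran from 0.00187 to 0.219 for K, from 0.00142 to 0.216 for LK and from 0.00145 to 0.190 for the mean.

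The co-chaperones and folding factors that work with BiP were read next. SDF2L1 encodes a partner of the ER DnaJ proteins and spans 21996591 to 21998588 on chromosome 22. It was at 80.4 and 116 TPM with sgGal4, 201 and 140 TPM in K, 121 and 119 TPM in L, 141 and 154 TPM in LK, and 137 and 152 TPM in KL. All 8 sgHS2 libraries were above both sgGal4 libraries, those labelled L by the least. The log2 differences were 0.79 (K, adjusted p = 0.0672), 0.31 (L, 0.577), 0.60 (LK, 0.176) and 0.58 (KL, 0.197), and 0.57 for the mean of the 4 groups (95% interval 0.22 to 0.92, adjusted p = 0.0761). None passed the threshold. The K difference did with size factors from the median of ratios (adjusted p = 0.0395), a filter of 10 TPM (0.0368) or without sgGal4 replicate 2 (0.0258), over a range of 0.0258 to 0.342. The mean did with these size factors (0.0366), that filter (0.0424), quantile normalization (0.0478), without sgGal4 replicate 2 (0.0313), without K replicate 2 (0.0461) or without the libraries labelled L (0.0468), over a range of 0.0313 to 0.494.

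PDIA4, which encodes the disulfide isomerase ERp72, spans 148700154 to 148725754 on chromosome 7. It was at 24.7 and 29.2 TPM with sgGal4, 45.9 and 38.3 TPM in K, 29.4 and 34.5 TPM in L, 39.6 and 34.3 TPM in LK, and 43.0 and 33.6 TPM in KL. Here too all 8 sgHS2 libraries were above both sgGal4 libraries, with 1 library labelled L at nearly the level of sgGal4 replicate 2. The largest difference was 0.62 for K (adjusted p = 0.201), and for the mean of the 4 groups it was 0.45 (95% interval 0.06 to 0.84, adjusted p = 0.223).

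DNAJB9 encodes ERdj4, a DnaJ protein and a well-known target of spliced XBP1, and spans 108210311 to 108215294 on chromosome 7. Its level was low, at 7.61 and 9.87 TPM with sgGal4, 11.1 and 7.61 TPM in K, 2.11 and 2.64 TPM in L, 5.98 and 3.77 TPM in LK, and 4.55 and 7.54 TPM in KL. The libraries labelled L were the lowest of all 10, those labelled K overlapped with sgGal4, and those labelled LK and KL were below it. The difference for L was -1.52 (95% interval -2.35 to -0.69, adjusted p = 0.0909), short of the threshold, and those for K, LK and KL were 0.07, -0.75 and -0.49. DNAJC3, which encodes the co-chaperone p58IPK, was between 3.67 and 8.50 TPM in all libraries, with 0.46 for K as its largest difference (adjusted p = 0.600). CRELD2, an ER protein with isomerase activity, was between 3.28 and 9.31 TPM. Its replicates differed up to 2.84-fold within a group, and its largest difference was 0.36, for LK (95% interval -0.67 to 1.38, adjusted p = 0.798).

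XBP1 encodes the factor itself and spans 29190543 to 29196585 on chromosome 22. It was at 29.5 and 38.1 TPM with sgGal4, 37.2 and 22.0 TPM in K, 20.8 and 53.1 TPM in L, 26.3 and 24.2 TPM in LK, and 32.7 and 24.7 TPM in KL. The lowest and the highest value of all 10 libraries both came from the libraries labelled L, 2.56-fold apart. The differences from sgGal4 lay between -0.40 and -0.01 with standard errors of 0.368, and the smallest adjusted p was 0.689. A TPM value per gene sums the spliced and unspliced forms, so the activity of IRE1 cannot be read from it.

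HERPUD1 encodes a membrane protein of ER-associated degradation and is known to respond to ATF4 as well as to ATF6 and XBP1. It spans 56966054 to 56978776 on chromosome 16. It was at 45.1 and 50.1 TPM with sgGal4, 25.8 and 21.7 TPM in K, 32.4 and 22.3 TPM in L, 12.8 and 22.2 TPM in LK, and 22.1 and 27.5 TPM in KL. All 8 sgHS2 libraries were below both sgGal4 libraries, which lay close together. HERPUD1 fell in the libraries labelled LK (log2 difference -1.44, standard error 0.290, adjusted p = 0.0220) and in the mean of the 4 groups (-1.03, 95% interval -1.53 to -0.54, adjusted p = 0.0252). The differences for K (-0.98, adjusted p = 0.116), L (-0.80, 0.243) and KL (-0.92, 0.142) did not pass the threshold. With mitochondrial genes left out and the rest rescaled, they were -1.57 for LK (adjusted p = 0.0128) and -1.13 for the mean (0.0131). For LK, the difference was -1.52 without sgGal4 replicate 1, -1.37 without sgGal4 replicate 2 and -1.07 without LK replicate 1, and the call was lost each time. For the mean, the difference was -1.11 and -0.96 without sgGal4 replicate 1 and 2, and the call was lost both times. It was also lost without the libraries labelled LK (-0.90, adjusted p = 0.0637). Over all alternatives the adjusted p ran from 0.0101 to 0.238 for LK and from 0.0131 to 0.152 for the mean.

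**Figure D2:**
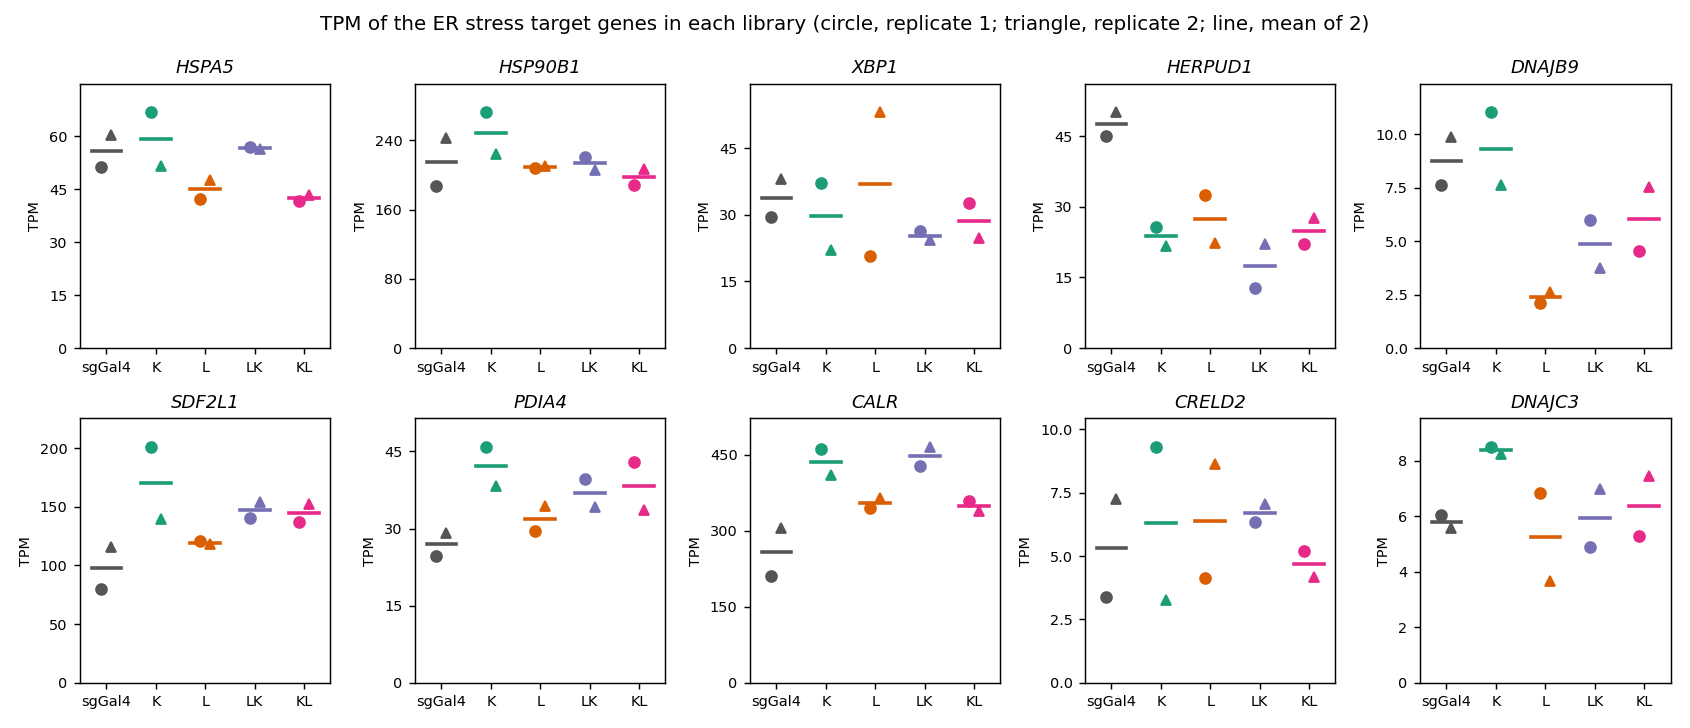
Each panel gives the TPM of 1 of the 10 ER stress target genes by group, with a circle for replicate 1, a triangle for replicate 2 and a line for the mean of the 2 libraries. CALR, SDF2L1 and PDIA4 are above, and HERPUD1 below, both sgGal4 libraries in all 8 sgHS2 libraries, while HSPA5 overlaps with sgGal4 in K and LK, XBP1 in K, L and KL, and HSP90B1 in all 4 groups.

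For the 10 genes together, the comparisons with sgGal4, which share their control libraries, gave few calls. In K, 1 gene of the 10 was called higher, beside 0.879% of all tested genes, and 0 were called lower, beside 0.741%, and 4 had an unadjusted p under 0.05, beside 15.6% of all. In L, 0 were called in either direction, beside 0.306% higher and 0.563% lower, although 3 of the 10 had an unadjusted p under 0.05 in limma, beside 12.8% of all. In LK, 1 was called higher and 1 lower, beside 1.18% and 0.829%, and 3 had an unadjusted p under 0.05, beside 14.2%. In KL, 0 were called, beside 0.632% higher and 0.731% lower, with 3 of the 10 at an unadjusted p under 0.05, beside 14.7%. In the mean of the 4 sgHS2 groups, 1 was called higher and 1 lower, beside 1.78% and 1.48%, and 5 had an unadjusted p under 0.05, beside 17.1%. With 10 genes, a single call already exceeds these shares, so the counts say little beyond the genes named. The balance of calls over all genes also depends on the scaling. With mitochondrial genes left out, 71 were higher and 138 lower in K (89 and 75 as reported), 91 and 153 in LK (119 and 84), and 147 and 268 in the mean (180 and 150).

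The direction of the 10 genes was mixed. Differences above 0 were found for 8 of the 10 in K (median 0.18), 4 in L (median -0.02), 7 in LK (median 0.02) and 4 in KL (median -0.10). Over all tested genes the medians were 0.06, 0.00, 0.03 and 0.05. With median-of-ratios size factors, quantile normalization and mitochondrial genes left out, the number above 0 in LK was 4, 5 and 4 of 10, and in K it was 8, 8 and 6. Size factors and rescaling move the genes of a library about alike. In LK, HSP90B1, DNAJC3 and HSPA5 lay near 0 (0.002, 0.01 and 0.03), so these counts say little about the direction of the 10. Leaving out mitochondrial genes moved the median of all tested genes to -0.06 in K and -0.09 in LK, and the median of the 10 to 0.06 and -0.10. All 8 sgHS2 libraries were above both sgGal4 libraries for 3 of the 10 genes, beside 6.53% of all tested genes, and below both for 1, beside 5.29%.

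**Figure D3:**
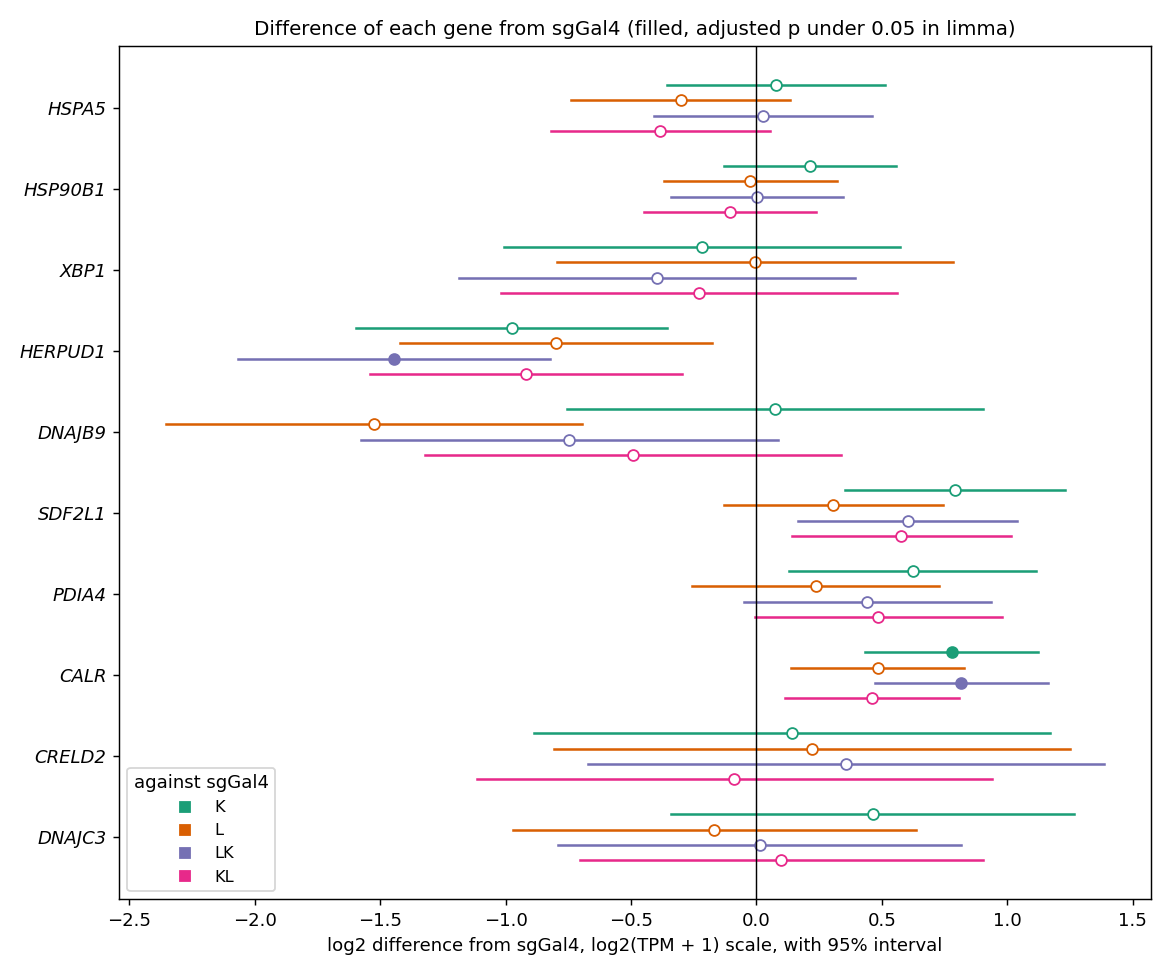
Points give the log2 difference from sgGal4 on the log2(TPM + 1) scale, with 95% intervals from limma, for the 10 genes in each of the 4 sgHS2 groups, filled where the adjusted p was under 0.05. CALR in K and LK and HERPUD1 in LK are filled, and all 4 intervals of HSP90B1, XBP1 and HSPA5 include 0.

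The sgHS2 groups were also compared with each other, in the same fit, so that the sgGal4 libraries entered only the estimate of the spread. The labels name dual effectors in LK and KL and single effectors in K and L, and the KDM1A and ZNF10 levels go against some of these labels, so this comparison is of labels. In limma it called HBE1 (-0.97, adjusted p = 0.000237), HBG2 (-0.97, 0.00174) and HBG1 (-1.01, 0.0105) lower in LK and KL. HBZ, which is not among the β-like globin genes that the paper names, was also called lower (-0.63, 0.0372), and ZNF10 was called higher (2.44, 0.000237). Whichever single library was left out, HBE1, HBG2 and ZNF10 kept these calls, whereas those of HBG1 and HBZ depended on the library. Of the 9 other alternatives with a test, HBE1 was called in 8, HBG2 and HBG1 in 7 each, HBZ in 6 and ZNF10 in 9. The paper reports stronger repression of β-globin genes with the dual effectors. In LK and KL against K and L, 0 of the 10 genes were called, beside 0.0395% of all tested genes called higher and 0.0494% lower, and 0 had an unadjusted p under 0.05, beside 7.45% of all. CALR differed by 0.01 (95% interval -0.24 to 0.25), HSPA5 by -0.07 (-0.37 to 0.24) and HERPUD1 by -0.29 (-0.73 to 0.15). In the F test among the 4 sgHS2 groups, 0 of the 10 were called, beside 0.336% of all tested genes, and 1, DNAJB9, had an unadjusted p under 0.05 (adjusted p = 0.278), beside 10.4% of all. For CALR, called in K and LK but not in L and KL, a difference among the 4 labelled groups was not shown (F test, adjusted p = 0.539).

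The sensors and further folding genes were read with the same fit. Of the 6 sensors and their proteases, 5 were tested and 0 were called against sgGal4, with 2, 0, 0 and 0 at an unadjusted p under 0.05 in K, L, LK and KL, where the shares of all genes were 15.6%, 12.8%, 14.2% and 14.7%. ERN1 was between 3.29 and 16.1 TPM, EIF2AK3 between 0.80 and 7.38 TPM and ATF6 between 7.81 and 18.7 TPM. MBTPS1, the site-1 protease that releases ATF6, was between 10.3 and 21.2 TPM and was the most abundant of the list by its mean over all libraries. In both libraries labelled KL, ATF6 was above MBTPS1, and ERN1 was above it in LK replicate 2 and KL replicate 1. ATF6B was listed at 0 in all libraries. Of 18 further folding genes, 15 were tested and 0 were called, with 0, 1, 4 and 2 at an unadjusted p under 0.05, to be read against the same shares. CANX, the membrane-bound partner of calreticulin and the most abundant of them, was between 394 and 539 TPM. HYOU1, a strong target in ER stress, and MANF were listed at 0 in every library.

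Of 14 tested translocon and signal peptidase genes, 0 were called in K, L, LK or KL, with 4, 3, 4 and 2 at an unadjusted p under 0.05, beside 15.6%, 12.8%, 14.2% and 14.7% of all genes. SSR3, the most abundant by its mean over all libraries, was between 99.4 and 145 TPM, though below SEC62 in L replicate 2, and SSR4 was listed at 0. SEC11C, named after its values were seen, was called in the mean of the 4 groups only (0.97, adjusted p = 0.0429), a call lost without any 1 library but KL replicate 2 (0.0600 to 0.195).

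Genes that ER stress shares with amino acid shortage were read apart from the 10. They and the amino acid genes read after them were chosen with earlier results of these data known, so their counts of calls are a description. ATF4 itself was between 86.4 and 164 TPM and was not called, with its largest difference in LK (-0.66, adjusted p = 0.0658). Of 8 tested genes of this list, 1 was called lower in K, 0 in L, 3 in LK and 1 in KL, beside 0.741%, 0.563%, 0.829% and 0.731% of all tested genes, and 0 higher. In K, L, LK and KL, 4, 3, 6 and 3 of the 8 had an unadjusted p under 0.05 in limma, beside 15.6%, 12.8%, 14.2% and 14.7% of all. DDIT3, which encodes the ER stress factor CHOP, was at 29.6 and 33.8 TPM with sgGal4 and between 10.7 and 18.3 TPM in the sgHS2 libraries, which did not overlap with it, and it was called in LK (-1.25, adjusted p = 0.0380). ATF3 was called in K (-1.94, adjusted p = 0.0172), LK (-1.88, 0.0170) and KL (-1.80, 0.0208), and SESN2 in LK (-1.65, 0.0354). TRIB3 was not called, with differences of -1.17 (K), -0.60 (L), -1.12 (LK) and -0.72 (KL). Without sgGal4 replicate 1 or 2, the adjusted p in LK was 0.115 and 0.129 for DDIT3 and 0.0866 and 0.152 for SESN2. Without LK replicate 1 or 2 it was 0.142 and 0.311 for DDIT3 and 0.286 and 0.107 for SESN2, and for DDIT3 also 0.0539 and 0.0530 without KL replicate 1 or 2. The calls of ATF3 were lost without sgGal4 replicate 2 (0.0815 in K, 0.102 in LK and 0.135 in KL) and without either library of the group compared (0.0851 to 0.194).

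Among 17 tested genes of amino acid supply and ATF4, 4 were called lower in K, 2 in L, 4 in LK and 2 in KL, beside the same shares of all genes (0.741%, 0.563%, 0.829% and 0.731%), and 0 higher. CHAC1, which degrades glutathione, was at 16.7 and 26.8 TPM with sgGal4, 1.81 and 1.83 TPM in K, 2.43 and 4.77 TPM in L, 1.19 and 1.68 TPM in LK, and 6.33 and 3.70 TPM in KL. ASNS, the asparagine synthetase, was at 74.8 and 79.9 TPM with sgGal4, 32.9 and 22.3 TPM in K, 46.4 and 36.8 TPM in L, 19.4 and 20.1 TPM in LK, and 39.0 and 39.6 TPM in KL. For both genes all 8 sgHS2 libraries were below both sgGal4 libraries, as for HERPUD1, and LK had the lowest mean of the groups. For HERPUD1, however, LK replicate 2 (22.2 TPM) was above K replicate 2 (21.7 TPM) and KL replicate 1 (22.1 TPM). A difference among the 4 sgHS2 groups was not shown for CHAC1, ASNS or HERPUD1 (F test in limma, adjusted p = 0.428, 0.154 and 0.652). CHAC1 fell in all 4 comparisons (adjusted p between 0.00180 and 0.0369, log2 differences of -2.97 in K and -3.19 in LK), and ASNS in K (-1.48, 0.00679) and LK (-1.91, 0.00139). The ASNS call in K was lost without K replicate 2 (0.0900), as was that of CHAC1 (0.0641). CHAC1 lost its call in L without either library of L or sgGal4 (0.0547 to 0.152), and in KL without any library but those labelled L (0.0524 to 0.276). DDIT4, an inhibitor of mTORC1, was called in all 4 comparisons and under every alternative run. SLC7A11, the cystine transporter, was called in K (-1.80, 0.0370) and LK (-1.87, 0.0259), and lost its call in K without any library but those labelled KL (adjusted p up to 0.161) and in LK without either library of LK or sgGal4 (0.0857 to 0.194). CTH, named after its values were seen, was at 10.5 and 29.6 TPM with sgGal4 and was called in the mean of the 4 groups only (-1.78, adjusted p = 0.0382). Its call was lost without sgGal4 replicate 1 (-2.49, 0.0518) or 2 (-1.08, 0.373), and without either library of K or KL or L replicate 2 (0.0529 to 0.0678). SHMT2, the most abundant of the list by its mean over all libraries, was between 83.8 and 138 TPM and was not called. DDIT4 was above SHMT2 in both sgGal4 libraries, at 146 and 195 TPM.

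The lists can be set side by side in the comparison of sgGal4 with the mean of the 4 sgHS2 groups, where the median over all tested genes was 0.03. The median was 0.06 for the 10 ER stress targets, 0.17 for the other folding genes and -0.23 for the sensors. It was -0.74 for the genes shared with amino acid shortage and -0.07 for amino acid supply and ATF4. Called lower were 1 of the 10 ER stress targets, 0 of 15 folding genes, 0 of 5 sensors, 3 of 8 shared genes and 5 of 17 of amino acid supply and ATF4, beside 1.48% of all tested genes. Without sgGal4 replicate 2, all 3 calls of the shared genes were lost (adjusted p = 0.0818 for ATF3, 0.213 for SESN2 and 0.120 for DDIT3), as were those of SLC7A11 (0.104) and CTH. Without sgGal4 replicate 1, the calls of SESN2 (0.113), DDIT3 (0.108), SLC7A11 (0.0750) and CTH were lost. That of SESN2 was also lost without L replicate 1, LK replicate 1 or KL replicate 2 (0.0512 to 0.0580). In limma, 5 of the 10 ER stress targets, 2 of 15 folding genes and 0 of 5 sensors had an unadjusted p under 0.05. So did 6 of 8 shared genes and 6 of 17 of amino acid supply and ATF4, beside 17.1% of all tested genes. The difference between lists was not tested, and all lists were chosen with earlier results of these data known.

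**Figure D4:**
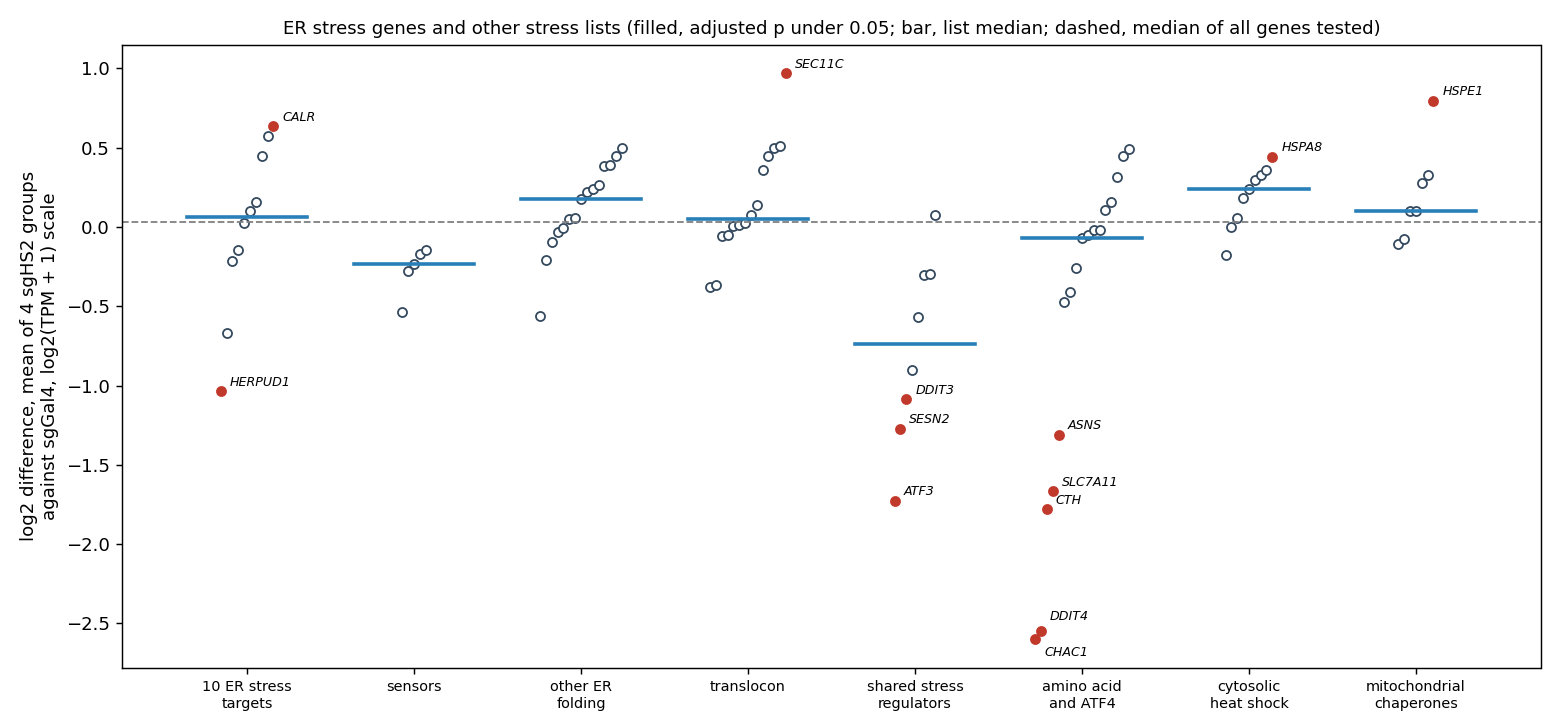
Each point gives the log2 difference of a gene from sgGal4, averaged over the 4 sgHS2 groups on the log2(TPM + 1) scale, by list, filled and named where the adjusted p was under 0.05, with a bar at the list median and a dashed line at the median of all tested genes, 0.03. The ER stress targets lie on both sides of 0 with CALR and HERPUD1 called in opposite directions, whereas the called genes of the shared and amino acid lists are all below 0.

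Chaperones outside the ER were read with the same fit. Of 9 tested genes of the cytosolic heat shock response, 1 was called in K, beside 0.879% of all tested genes called higher, and 0 in L, LK and KL. In these 4 comparisons 3, 0, 4 and 1 of the 9 had an unadjusted p under 0.05 in limma, beside 15.6%, 12.8%, 14.2% and 14.7% of all. The gene called was HSPA8, the constitutive Hsp70 (0.62, adjusted p = 0.0404), a call lost without any 1 library but sgGal4 replicate 2 (0.0575 to 0.251), and HSPA1A and HSPA1B were listed at 0. Of 7 mitochondrial chaperones and proteases, 1, HSPE1, which encodes Hsp10, was called higher in all 4 comparisons, beside 0.879%, 0.306%, 1.18% and 0.632% of all tested genes in K, L, LK and KL. Of the 7, 2, 2, 2 and 1 had an unadjusted p under 0.05, to be read against the same unadjusted shares. It was at 252 and 247 TPM with sgGal4 and between 361 and 471 TPM in the sgHS2 libraries. Unlike those of CALR, the sgGal4 levels of HSPE1 were close together, and its differences lay between 0.70 and 0.87, with calls in K and LK that were kept without sgGal4 replicate 1 (adjusted p = 0.0349 and 0.0264) and calls in L and KL that were not (0.0588 and 0.0646). The calls were also lost without either library of K (0.0803 and 0.0708), L (0.176 and 0.0843) or LK (0.0770 and 0.101), and without KL replicate 2 (0.276). In the mean of the 4 groups, where 1.78% of all tested genes were called higher, limma called HSPE1 (0.79, adjusted p = 0.00148) and HSPA8 (0.44, 0.0434). The HSPE1 difference there lay between 0.68 and 0.84 over all alternatives, with an adjusted p of up to 0.0795. The HSPA8 call in the mean was lost under most alternatives. GAPDH, a reference gene, was between 1294 and 2029 TPM, with the lowest value in sgGal4 replicate 1 as for CALR.

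Over the 10 libraries, the log2(TPM + 1) values most like those of HSPA5, among the 6103 genes averaging 10 TPM or more, were those of TMED5 (Pearson correlation 0.935), LCLAT1 (0.933), ZNF124 (0.931), SCARB1 (0.930) and LYN (0.926). These are the highest of many and are given as a description, since all values of a library share its total.

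Reads with more than 1 location were left out, so sequence shared with other genes may bear on the levels. Of all windows of 50 bases in the main transcript, 13.6% of HSP90B1, 9.72% of CALR and 9.56% of HSPA5 were also found in transcripts of another annotated gene. The share was 0.499% for HERPUD1, 0.199% for DNAJC3 and 0 for XBP1, DNAJB9, SDF2L1, PDIA4 and CRELD2. Some of these genes overlap the member at the same place in the genome, where a read keeps a single location, and which windows lost reads was not tested.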

How the data were processed

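RNA-seq values of 10 K562 libraries were used, 2 for each of 5 groups taken from the labels. The authors aligned reads to hg19 with STAR 2.5.2b, allowed each read 1 location, and deposited 1 RSEM value per gene in TPM. The annotation and RSEM version are not given in the sources used here, the labels and methods name different library kits, and TPM keeps no record of read depth.

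From the deposited TPM, log2(TPM + 1) of the 10127 genes averaging 1 TPM or more entered 1 limma fit of all libraries (version 3.58.1, R 4.3.3, jsonlite 2.0.0) with a mean-variance trend, 5 residual degrees of freedom and Benjamini-Hochberg adjustment over all genes of a comparison. The threshold was an adjusted p of 0.05. DESeq2, which the study names, needs counts and was not used. Differences on this scale understate changes of low genes. The step was tested on simulated data.

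Members and lists were chosen with earlier results of these data known. Named were the members, from each other list reported the genes past the threshold in a comparison with sgGal4 and the gene with the highest mean TPM over all libraries, fixed regulators (among them ERN1, ATF4, TRIB3 and HYOU1), the 5 genes most like HSPA5, and HBE1, KDM1A, ZNF10 and GAPDH as label checks. Gene positions and transcripts came from GENCODE 44 mapped to GRCh37, and promoters from RefSeq, GRCh38.p14, read with Python 3.11.15, numpy 2.4.6 and matplotlib 3.10.9. Alternatives were another pseudocount, filter, scaling, variance model or set of libraries, a replicate block, group means without a test, and leaving out each library.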

Additional observations from a re-analysis of the deposited data

Results flagged for a closer look

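Among the genes named here, the sgHS2 groups differed for 7 in the F test among the 4 groups in limma. These were DDIT4, a target of ATF4 (adjusted p = 0.0156), the globin genes HBE1 (0.000510), HBZ (0.00154), HBG2 (0.00207) and HBG1 (0.0143), and the effector genes KDM1A (0.00391) and ZNF10 (4.01e-07). The TPM of DDIT4 was 146 and 195 with sgGal4, 25.4 and 22.2 in K, 49.2 and 39.2 in L, 14.5 and 13.5 in LK, and 49.9 and 35.4 in KL, so that LK was lowest without overlap. None of the 10 ER stress targets was called in this test, and 1 had an unadjusted p under 0.05, beside 10.4% of all genes.

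For 2 of the globin genes, groups lay on opposite sides of both sgGal4 libraries. HBZ was above them in K (log2 difference 0.45), L (1.21) and KL (0.66) and below them in LK (-0.28). HBG1 was above them in K (0.28) and below them in LK (-0.67) and KL (-1.13). These pairs of groups were not tested against each other.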

How the results depend on the processing

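The direction of the 5 called values of the 10 genes (CALR in K, LK and the mean, HERPUD1 in LK and the mean) was the same in 106 of 106 alternative values. Of 1106 alternative values of those not called, 68 had the other sign and 11 passed the threshold, 5 of them without 1 library. No called result took the other direction.

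The number of genes called depended on several settings. Without a filter on low values it was 51 in K (164 as reported), 37 in L (88), 61 in LK (203), 83 in KL (138), 185 in the mean (330) and 4 in LK and KL against K and L (9). Without a mean-variance trend these were 14, 22, 15, 75, 99 and 4, and 8 among the 4 sgHS2 groups (34). With only the groups compared they were 86 (K), 42 (L), 55 (LK), 82 (KL) and 15 (LK and KL against K and L). Quantile normalization gave 151 in L and 15 in LK and KL against K and L, mitochondrial genes left out gave 140 in L, and a pseudocount of 0.1 gave 5 in LK and KL against K and L.

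Of the 10 genes, 0 were called in K (1 as reported) and LK (2) without a filter, without a trend or with only the groups compared, and 0 in the mean (2) without a filter or a trend. In K, 2 were called at a mean of at least 10 TPM, where DNAJB9, CRELD2 and DNAJC3 have no value, and 2 with size factors. The mean without the libraries labelled LK, an alternative chosen after seeing the data, gave 1. The cause was not tested.

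Leaving out 1 library leaves a group with 1 library, assumed to vary like the others. Genes called then ranged from 9 to 230 in K, 16 to 138 in L, 20 to 210 in LK, 45 to 168 in KL, 89 to 272 in the mean, 3 to 15 in LK and KL against K and L and 10 to 35 among the 4 sgHS2 groups. Of the 10 genes, 0 to 2 were called in K and LK, 0 to 1 in L and KL, 0 to 3 in the mean, and 0 to 0 in the others.

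With the replicate number as a block, 119 genes were called in K, 69 in L, 151 in LK, 127 in KL and 256 in the mean, and 1, 0, 2, 0 and 2 of the 10. Replicates of different groups showed no pairing, with correlations of -0.0550 to 0.0577 over 10 pairs of groups, and share only a number. TPM gives no depth, so the lowest level that could be read is unknown.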
